A study of Mus musculus with 1666 samples.

Results

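Wnt signalling acts through beta-catenin, which a destruction complex breaks down until a Wnt protein binds Frizzled and Lrp receptors at the cell surface. Many genes that beta-catenin and its Tcf and Lef partners switch on encode brakes on the same pathway, so their RNA is widely used as a readout of the signal. In embryonic skin, Wnt signals are needed in the epithelium for the placode, the thickening that founds a follicle, and in the dermis for the condensate beneath it. The genes described here are 10 such targets and brakes, chosen by symbol: Axin2, Nkd1, Nkd2, Znrf3, Rnf43, Notum, Dkk4, Apcdd1, Sp5 and Tnfrsf19. All 10 are among the 49662 symbols of the expression table.

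The values are TPM, a measure of transcript abundance scaled for gene length and total, in single mouse whisker follicle cells profiled by RamDA-seq, a full-length method for total RNA. There were 1614 cells on 18 plates, from 7 stages: first E11.5 and E12.0, then E13.0 and E13.5, and last E14.0, then E15.0, then E17.0. From E12.0 on, whole follicles of mice carrying a nuclear photoconvertible protein, Kikume Green-Red, had been switched to red, and ITGA6-positive, CD31-negative red cells were sorted. At E11.5 the sort used ITGA6 and CD31 alone, and all cells came from 1 plate. A difference between E11.5 and the later stages therefore cannot be told apart from one of sort or plate. The labels name no embryo, litter or strain, so each stage is 1 sample, and how far a difference between stages would recur in other embryos cannot be told.

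Cells fell into 2 classes by genes outside the set. Epithelial cells had Krt5 and Trp63 at 10 TPM or more and Col3a1 under 50 TPM, and numbered 1035 cells, or 64.1%. Fibroblast-like cells had Col3a1 at 50 TPM or more, Pdgfra at 10 TPM or more and Trp63 under 10 TPM, and numbered 417 cells, or 25.8%. The other 162 cells belonged to neither. By stage there were 54, 267, 53, 159, 144, 178 and 180 epithelial cells, against 14, 0, 210, 2, 19, 126 and 46 fibroblast-like cells. Markers that include the genes used to choose the classes describe them. The summed level of 8 fibroblast markers by stage was 15.1 to 177 TPM in epithelial cells and 1477 to 7371 TPM in fibroblast-like cells. The summed level of 10 basal epidermis markers was 878 to 2924 TPM in epithelial cells and 16.7 to 97.0 TPM in fibroblast-like cells. TPM keeps no read depth; epithelial cells had 16497 to 19489 genes detected at 1 TPM, as medians by stage. Xist differed between stages, with a mean of 0.514 to 0.563 TPM in epithelial cells at E13.5, at E14.0 and lastly at E17.0, against 108.1 to 241 TPM at the other 4 stages, and its part in the stage values was not tested.

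In the GENCODE M21 annotation of GRCm38, 4 of the genes are on chromosome 11: Axin2 at chr11:108920349-108950783, Notum at chr11:120653788-120661175, Znrf3 at chr11:5276324-5444847 and Rnf43 at chr11:87662722-87735539. Nkd1 is at chr8:88521354-88594884 and Dkk4 at chr8:22624043-22627547. Nkd2 is at chr13:73818534-73847631, Sp5 at chr2:70474923-70477729 and Tnfrsf19 at chr14:60963875-61046490. The promoters of 6 of the 10 genes were found in RefSeq sequences of the GRCm38.p6 build, 8 promoters in all. The letters CTTTGAA and CTTTGAT and also CTTTGTA and CTTTGTT, the core bound by Tcf and Lef factors, were searched on both strands in the 250 bases before each start. They occur in 2 of these 8 promoters, against 14.8% of 32851 promoters of the same length. The 2 are shown because their genes had opposite courses in Shh-positive epithelial cells, with capitals for the matches. The Sp5 promoter, chr2:70474673-70474922 on the plus strand, holds CTTTGTT on the minus strand 222 bases before the start and CTTTGAT on the plus strand 104 bases before it. A Tnfrsf19 promoter, chr14:61037988-61038237 on the minus strand, holds CTTTGAT read against the gene 202 bases before the start. The other Tnfrsf19 promoter, chr14:61046856-61047105, and the promoters of Axin2, Nkd1, Nkd2 and Rnf43 hold none of these letters in this window. The windows of Nkd1 and Rnf43, and the Tnfrsf19 window shown, lie within the annotated genes, so they do not describe the annotated starts.
Sp5: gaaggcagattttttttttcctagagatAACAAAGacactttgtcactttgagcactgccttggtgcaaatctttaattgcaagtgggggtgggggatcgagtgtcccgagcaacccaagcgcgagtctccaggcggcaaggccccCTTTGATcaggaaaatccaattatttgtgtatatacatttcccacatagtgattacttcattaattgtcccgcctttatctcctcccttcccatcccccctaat
Tnfrsf19: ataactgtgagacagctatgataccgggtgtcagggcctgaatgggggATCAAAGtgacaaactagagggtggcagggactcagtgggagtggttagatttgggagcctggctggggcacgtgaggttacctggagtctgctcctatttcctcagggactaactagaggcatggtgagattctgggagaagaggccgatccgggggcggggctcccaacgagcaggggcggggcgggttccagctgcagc

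In epithelial cells the 10 genes differed widely in how many cells carried them. Rnf43 and Znrf3 were at 10 TPM or more in 89.8% (87.7 to 91.5%) and 89.1% (87.02 to 90.9%) of the 1035 cells, with exact Clopper-Pearson 95% intervals that cover counting error only. Tnfrsf19 reached that level in 68.7% (65.8 to 71.5%), Apcdd1 in 68.02% (65.1 to 70.9%) and Axin2 in 50.4% (47.3 to 53.5%). The other 5 genes reached it in fewer cells: Nkd1 in 15.6%, Notum in 10.7%, Dkk4 in 5.89%, Sp5 in 5.80% and Nkd2 in 4.06% of cells. Fibroblast-like cells had another order, led by Apcdd1 at 91.8%, Nkd2 at 83.2% and Nkd1 at 78.2%. At the low end of the fibroblast-like cells were Rnf43 at 1.68% and Dkk4 at 0.480%. At the lower level of 1 TPM, Dkk4 was found in 37.9% of epithelial and 38.4% of fibroblast-like cells, so a share at that level was not read as expression.

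Of the intracellular brakes, Axin2 encodes a scaffold of the destruction complex and is a widely used reporter of Wnt signalling. Its mean TPM in epithelial cells, taken over plates of equal weight, was 24.8, 17.5, 5.29, 13.1, 16.5, 18.0 and 15.9 from E11.5 to E17.0. The lowest mean was thus at E13.0, where 9 of 53 cells were at 10 TPM or more, and the 3 plates there, at 4.72 to 5.67 TPM, lay below every other plate. In fibroblast-like cells there were 5 stages with enough cells (E11.5, E13.0 and the last 3), and the Axin2 means were 68.3, 18.5, 43.4, 43.9 and 20.5 TPM, with E13.0 again the lowest. An antisense gene, Gm11670, overlaps Axin2 and was at 1.005 to 4.50 TPM in epithelial cells and 3.02 to 14.99 TPM in fibroblast-like cells by stage. Whether counting used strand is not stated, so reads of Axin2 and its antisense gene cannot be told apart, and the same holds for Notum below.

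Nkd1 and Nkd2 encode Naked cuticle proteins that bind Dishevelled, the relay between the receptor and the destruction complex. Nkd1 means in epithelial cells were 15.8, 10.03, 3.89, 1.70, 2.79, 3.03 and 4.69 TPM over the 7 stages. The highest 2 values were those of E11.5 and E12.0, and the trough was at E13.5, with 2 of 159 cells at 10 TPM or more. Nkd2 means in epithelial cells stayed between 1.26 TPM at E11.5 and 4.30 TPM at E12.0. The 2 paralogs thus differed in the epithelium, and in fibroblast-like cells their highest stages differed too. There Nkd1 means were 67.5, 31.5, 48.98, 44.5 and 17.1 TPM, and Nkd2 means were 32.4, 39.3, 149, 137 and 150 TPM. Nkd2 plates at E15.0 ran from 24.7 to 214 TPM, a range that holds all 5 stage means. A processed pseudogene, Gm8062, overlaps Nkd2.

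Znrf3 and Rnf43 encode membrane ubiquitin ligases that remove Frizzled from the surface and that R-spondins hold back. Znrf3 means in epithelial cells were 77.3, 42.6, 29.6, 31.3, 47.3, 42.8 and 38.5 TPM. The highest was that of E11.5, the stage with another sort and a single plate. Rnf43 means were 43.98, 31.2, 31.99, 48.9, 60.1, 52.8 and 44.8 TPM, highest at E14.0 and lowest at E12.0. The highest and lowest stage thus differed less for Rnf43 than for Znrf3. In fibroblast-like cells Znrf3 was at 6.02 to 11.3 TPM by stage and Rnf43 at 0.479 to 1.57 TPM.

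Among the brakes outside the cell, Notum encodes an enzyme that strips the lipid from Wnt proteins. Its mean in epithelial cells was 7.65, 6.88, 8.51, 2.03, 7.38, 7.37 and 10.4 TPM, while the median cell was at 0 at every stage. Cells at 10 TPM or more numbered 13, 40, 6, 3, 8, 16 and 25 by stage, and the highest cell reached 377 TPM at E14.0. The mean therefore came from a minority of cells. Of the 2 antisense genes that overlap Notum, Notumos was at 0.185 to 0.681 TPM and Myadml2os at 0.0916 to 0.733 TPM in epithelial cells by stage.

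Dkk4 encodes a secreted ligand of the Lrp coreceptors and is a known early placode gene. Its mean was 19.5, 11.7, 1.44, 0.934, 0.754, 1.80 and 0.841 TPM in epithelial cells. At E11.5 and E12.0, 12 of 54 and 46 of 267 cells were at 10 TPM or more, and at E13.5, E14.0 and E17.0 no cell was, which allows shares of up to 1.89%, 2.08% and 1.67%. From E13.0 on the means were 0.754 to 1.80 TPM, and those of fibroblast-like cells were 0.720 to 1.40 TPM. Apcdd1, a membrane glycoprotein that binds Wnt and Lrp, had the reverse start, with 28.7, 35.7, 76.96, 71.1, 90.9, 69.2 and 63.5 TPM. Its share of epithelial cells at 10 TPM or more changed less, from 57.2% at E17.0 to 73.6% at E13.0.

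Sp5 encodes a zinc finger factor that acts on Wnt target genes. Its mean was 2.62, 6.66, 0.686, 0.592, 0.231, 0.126 and 0.00240 TPM in epithelial cells. It was the only gene of the 10 whose level peaked at E12.0 and then declined at each later stage, and no cell was at 10 TPM from E14.0 on. Tnfrsf19, a receptor of the tumour necrosis factor family also called Troy, is a beta-catenin target in other tissues. Its mean was 120, 53.6, 24.96, 20.95, 45.7, 27.1 and 31.5 TPM. All 321 epithelial cells of E11.5 and E12.0 were at 10 TPM or more, but 38.9% were at E17.0, where the median cell was at 0.903 TPM.

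**Figure D1:**
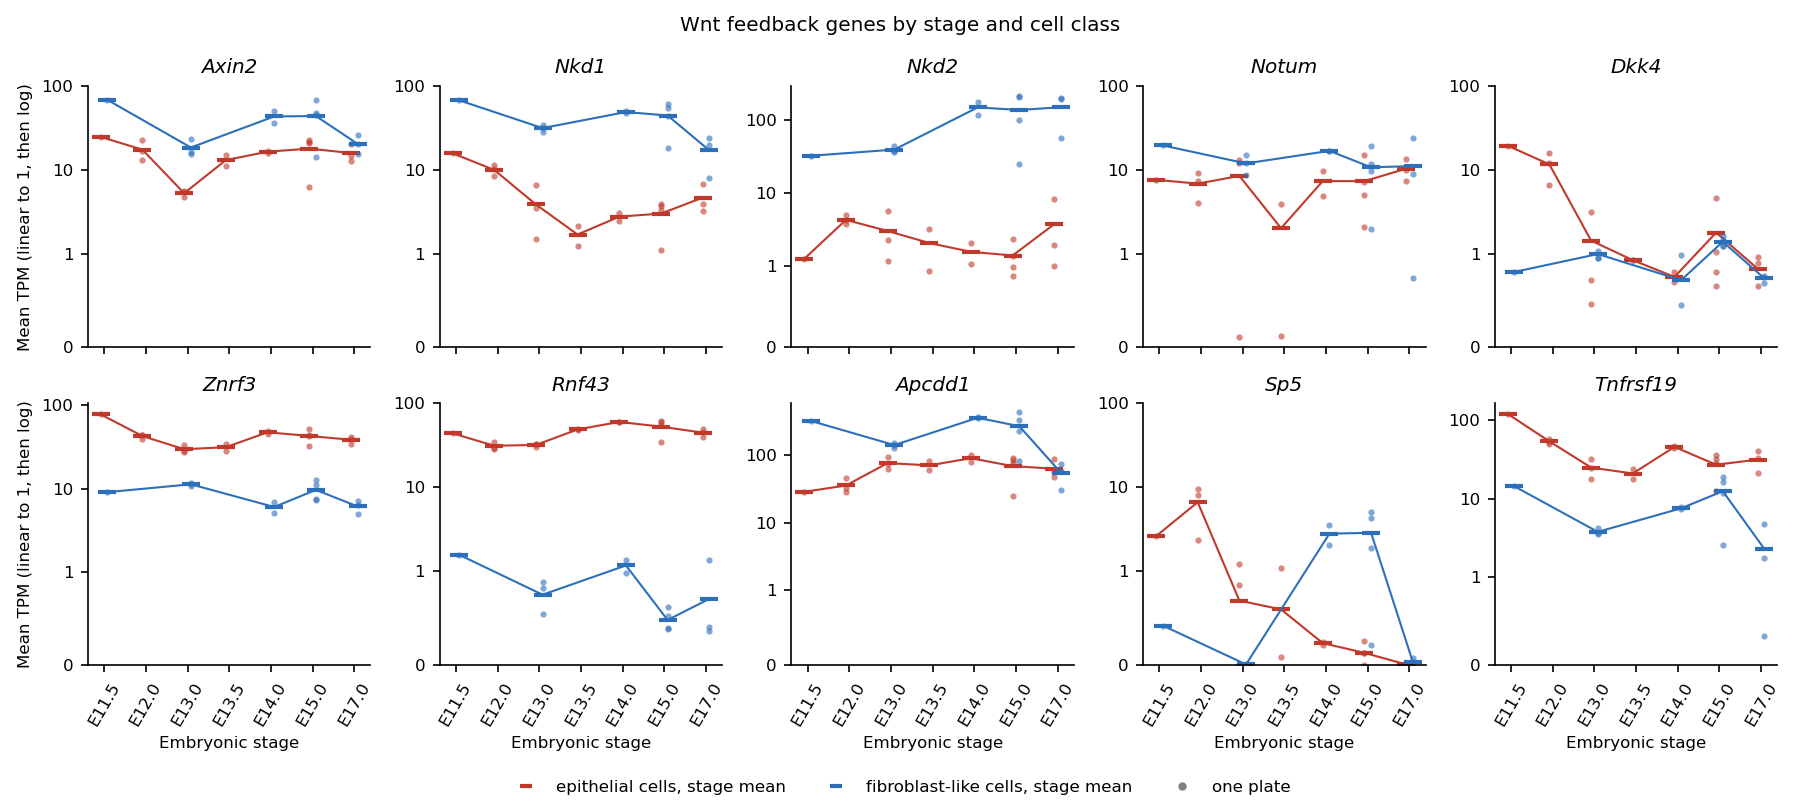
Mean TPM (vertical axis, linear to 1 and logarithmic above) of the 10 genes by embryonic stage in epithelial (red) and fibroblast-like (blue) cells; bars joined by lines are stage means and dots are plates with 5 or more cells of the class. Dkk4 and Sp5 are highest in epithelial cells at E11.5 and E12.0, while Nkd2 stays at 4.30 TPM or less in epithelial cells and at 32.4 TPM or more in fibroblast-like cells.

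Whether the epithelial levels followed embryonic day was tested with limma across 23671 genes, with 1 mean per stage, on the log2(mean TPM + 1) scale used for every fit here. None of the 10 genes passed a Benjamini-Hochberg adjusted p of 0.05 in limma. Of all genes, 1.23% rose and 0.646% fell at that threshold, 1.87% in all. Under an unadjusted limma p of 0.05 were 18.9% of all genes and 2 of the 10, a like share. These were Sp5, with a slope of -0.45 per day (SE 0.13, adjusted p = 0.123), and Dkk4, with a slope of -0.57 per day (SE 0.20, adjusted p = 0.177). The median slope was -0.05 over the 10 genes and -0.01 over all genes. Sp5 passed with a pseudocount of 0.1 TPM, at -1.03 per day and a limma adjusted p = 0.0402, and Tnfrsf19 passed when log2 values were averaged over cells, at -0.68 per day and a limma adjusted p = 0.0397. For a curved course, 0.0% of genes passed in limma, while 3070 genes and 4 of the 10, Nkd1, Apcdd1, Dkk4 and Tnfrsf19, were under an unadjusted p of 0.05. The quadratic term was positive for 3 of these 4 and negative for Apcdd1, at -0.13 per squared day.

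Epithelial and fibroblast-like cells carried different members of the set. The 5 stages with at least 10 cells of each class were compared, with stage as a block, so that the p-values measure how alike the difference was across stages. Of 9 genes tested, 3 were higher and 3 lower in epithelial cells in limma at an adjusted p of 0.05, where 8.0% of 24166 genes were higher and 13.3% lower, 21.3% in all. Rnf43 averaged 46.7 ± 10.5 TPM in epithelial cells and 0.936 ± 0.436 TPM in fibroblast-like cells (SD over 5 stages), a log2 difference of 4.62 (SE 0.18, limma adjusted p = 5.33e-05). Znrf3 averaged 47.1 ± 18.1 TPM in epithelial cells and 8.42 ± 2.30 TPM in fibroblast-like cells, a log2 difference of 2.32 (SE 0.24, limma adjusted p = 0.00203). Both ligases, and Tnfrsf19 as well, were higher in epithelial cells at all 5 stages, and their ranges did not overlap. The ranges of Notum, which was not called, did not overlap either. The share of all genes without overlap is not given here, so this adds nothing to the calls. Tnfrsf19 averaged 49.8 ± 39.996 TPM in epithelial cells and 8.10 ± 5.27 TPM in fibroblast-like cells, a log2 difference of 2.44 (SE 0.31, limma adjusted p = 0.00381).

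The genes that were lower in the epithelium were the 3 intracellular brakes. Nkd2 averaged 2.20 ± 1.12 TPM in epithelial cells and 101 ± 60.1 TPM in fibroblast-like cells (SD over 5 stages), a log2 difference of -4.78 (SE 0.41, limma adjusted p = 0.000976). Nkd1 averaged 6.04 ± 5.51 TPM in epithelial cells and 41.9 ± 18.9 TPM in fibroblast-like cells, a log2 difference of -2.73 (SE 0.32, limma adjusted p = 0.00295). Axin2 averaged 16.1 ± 6.995 TPM in epithelial cells and 38.9 ± 20.4 TPM in fibroblast-like cells, a log2 difference of -1.20 (SE 0.19, limma adjusted p = 0.0084). All 3 were lower in epithelial cells at each of the 5 stages, though the ranges of Axin2 overlap, and without the stage block the limma adjusted p of Axin2 was 0.0853. Notum, at 8.25 ± 1.27 TPM in epithelial cells and 14.1 ± 3.96 TPM in fibroblast-like cells, missed the threshold with a limma adjusted p = 0.0505, and passed it under several alternatives, among them a filter at 10 TPM, the mean of log2 values, stricter classes and no stage block. Apcdd1 averaged 65.9 ± 23.1 TPM in epithelial cells and 232 ± 129 TPM in fibroblast-like cells, with a limma adjusted p = 0.0593. At E17.0 alone its epithelial mean, 63.5 TPM, was above the fibroblast-like one, 54.96 TPM, and without that stage 8 genes were called, Apcdd1 and Notum among them. Dkk4 had a limma adjusted p = 0.313 and Sp5 fell under the filter of 1 TPM. The change of the class difference with day was called for 0.0% of genes in limma, with 3526 genes and 2 of the 9, Axin2 and Apcdd1, under an unadjusted p of 0.05.

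Upstream of these brakes, lists of pathway genes were also divided between the classes in the same fit, in which 21.3% of all genes were called. Among 14 tested Wnt ligands, 6 were higher in epithelial cells (Wnt3, Wnt4, Wnt6, Wnt7b, Wnt10a and Wnt10b) and 3 lower (Wnt5a, Wnt5b and Wnt11). Wnt10b averaged 21.03 ± 15.4 TPM in epithelial cells and 0.0954 ± 0.136 TPM in fibroblast-like cells. Both tested R-spondins, the secreted partners of Lgr receptors that hold back Znrf3 and Rnf43, were lower in epithelial cells, with Rspo1 at 0.614 ± 0.259 TPM in epithelial cells and 28.8 ± 20.6 TPM in fibroblast-like cells. Their receptors Lgr4 and Lgr6 were among 7 of 14 receptors that were higher in epithelial cells, with Lgr4 at 137 ± 57.5 TPM in epithelial cells and 35.5 ± 16.01 TPM in fibroblast-like cells, and 1, Fzd2, was lower. Of 7 genes of the destruction complex and Dishevelled, 1 was called, Csnk1a1, at 187 ± 23.1 TPM in epithelial cells and 147 ± 19.9 TPM in fibroblast-like cells. Of 12 other antagonists, 3 were higher (Sostdc1, Kremen1 and Kremen2) and 5 lower (Dkk1, Dkk2, Sfrp1, Sfrp2 and Frzb). Lef1, a partner of beta-catenin, averaged 117 ± 99.3 TPM in epithelial cells and 506 ± 182 TPM in fibroblast-like cells and was lower, and beta-catenin itself, Ctnnb1, was higher, at 1580 ± 503 TPM in epithelial cells and 761 ± 121 TPM in fibroblast-like cells.

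**Figure D2:**
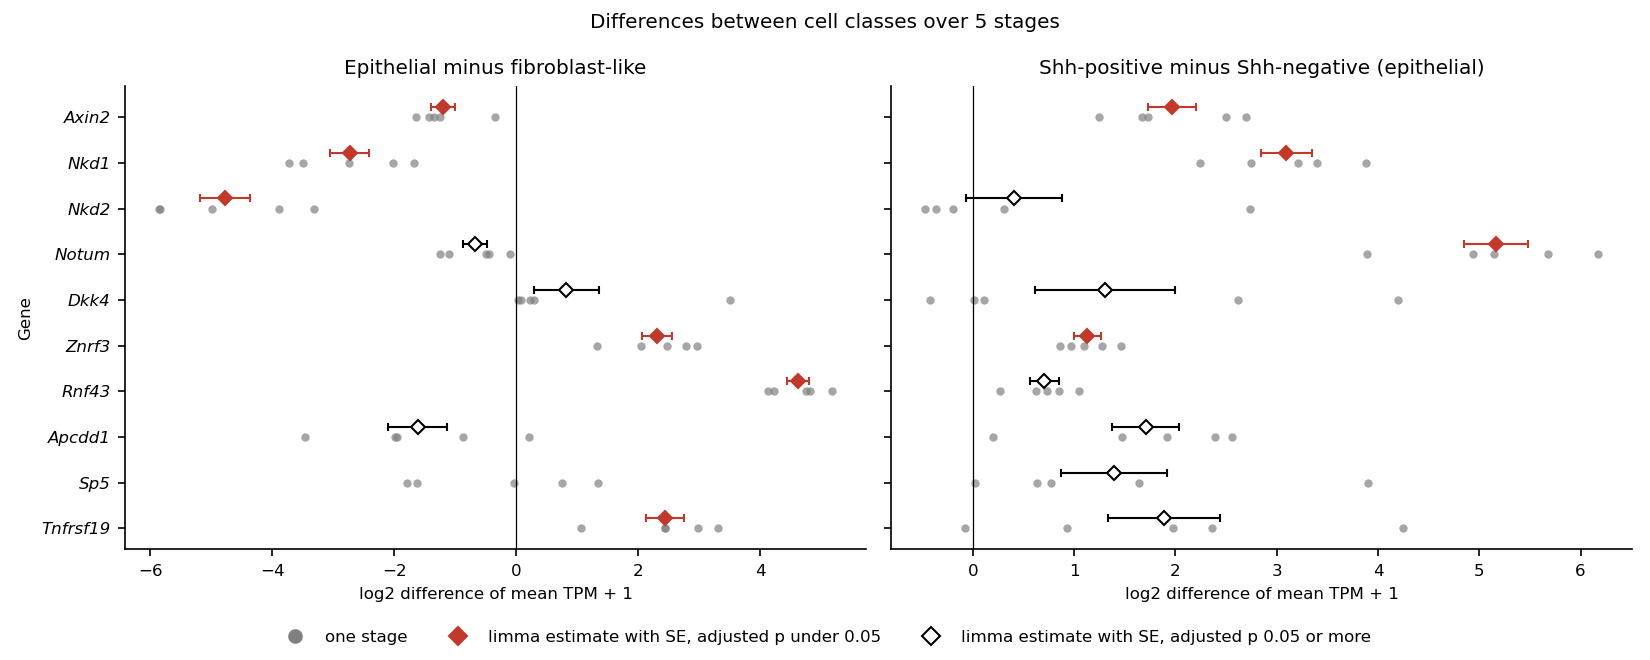
Log2 differences of mean TPM + 1 for the 10 genes between epithelial and fibroblast-like cells (left) and between Shh-positive and Shh-negative epithelial cells (right); grey dots are the 5 stages of each comparison and diamonds the limma estimates with their SE, red where the adjusted p is under 0.05. The left panel has Rnf43 at 4.62 and Nkd2 at -4.78, and in the right panel all 10 estimates lie above 0, led by Notum at 5.17.

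Within the epithelium, Notum, Nkd1, Axin2 and Znrf3 were higher in cells with Shh, the hedgehog ligand made by the centre of the placode and later the tip of the follicle. Shh-positive cells had Shh at 10 TPM or more and numbered 142, and Shh-negative cells had Shh under 1 TPM and numbered 826. The split was compared at E12.0, E13.0, E14.0, E15.0 and E17.0, where 64, 12, 11, 15 and 32 Shh-positive cells stood against 175, 39, 127, 154 and 138 Shh-negative cells. At E13.0 the Shh-positive mean rests on 1 plate, since the others had under 5 such cells. All 10 genes had a positive estimate, with a median log2 difference of 1.55 against -0.01 over all genes, and 4 of 10 were higher in Shh-positive cells in limma at an adjusted p of 0.05. Of all 23913 genes, 0.109% were called higher and 0.0627% lower, 0.171% in all.

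Among the 41 called genes, only Shh, which chose the cells, and Gas1, named here after its value was seen, had a lower p than Notum. Its means in Shh-positive cells were 24.5, 50.3, 91.2, 54.7 and 45.2 TPM over the 5 stages, against 0.714, 0, 0.276, 0.813 and 0.302 TPM in Shh-negative cells. Every Shh-positive mean lay above every Shh-negative mean, and the share of all genes for which this holds is not given here. Notum averaged 53.2 ± 24.2 TPM in Shh-positive cells and 0.421 ± 0.336 TPM in Shh-negative cells (SD over 5 stages), a log2 difference of 5.17 (SE 0.32, limma adjusted p = 0.00538). Even so, Notum was not in every Shh-positive cell: 34 of 64, 6 of 12, 7 of 11, 11 of 15 and 20 of 32 of them were at 10 TPM or more. Among Shh-negative cells of these stages, 1, 0, 1, 2 and 2 cells were.

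Nkd1 means in Shh-positive cells were 23.9, 21.8, 26.6, 23.1 and 17.4 TPM, against 4.27, 1.46, 0.876, 1.29 and 1.75 TPM in Shh-negative cells. Over the 5 stages compared, the Shh-positive mean stayed within 17.4 to 26.6 TPM, without the fall that the whole epithelium had after E12.0. The split leaves out E11.5 and E13.5, with 3 and 5 Shh-positive cells, where the epithelial mean of Nkd1 was highest and lowest. The log2 difference of Nkd1 was 3.09 (SE 0.25, limma adjusted p = 0.0132). Axin2 means in Shh-positive cells were 36.5, 11.1, 47.3, 75.7 and 52.1 TPM, against 10.3, 4.10, 14.1, 12.6 and 7.18 TPM in Shh-negative cells. The dip of Axin2 at E13.0 was present on both sides of the split. The log2 difference of Axin2 was 1.97 (SE 0.24, limma adjusted p = 0.0421). Znrf3 means in Shh-positive cells were 66.1, 46.7, 103, 105 and 68.5 TPM, against 33.4, 25.2, 42.2, 37.4 and 31.5 TPM in Shh-negative cells. The log2 difference of Znrf3 was 1.13 (SE 0.13, limma adjusted p = 0.0384).

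The other 6 genes did not pass the test, and the gap between the groups varied over the stages for most of them. Tnfrsf19 means in Shh-positive cells were 52.2, 70.6, 82.9, 105 and 130 TPM, against 55.1, 17.2, 42.9, 19.7 and 5.87 TPM in Shh-negative cells. At E12.0 the 2 groups were level, and at E17.0 all 32 Shh-positive cells but 31 of 138 Shh-negative cells were at 10 TPM or more. Sp5 means in Shh-positive cells were 23.1, 3.02, 1.01, 0.675 and 0.0116 TPM, against 0.616, 0.289, 0.177, 0.0768 and 0 TPM in Shh-negative cells. Dkk4 means in Shh-positive cells were 41.4, 9.45, 0.884, 1.06 and 0.852 TPM, against 1.31, 0.704, 0.743, 1.77 and 0.840 TPM in Shh-negative cells. Of the 5 stages compared, both were highest in Shh-positive cells at E12.0, when 46 of 64 were at 10 TPM or more for Sp5 and 38 of 64 for Dkk4, and at E13.0 a single Shh-positive cell was for each.

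The change of the Shh difference with day was tested after these values had been seen. In limma 0.0% of genes passed, with 2685 genes and 4 of the 10 under an unadjusted p of 0.05. These were Tnfrsf19 at 0.77 per day (SE 0.16, limma adjusted p = 0.229), Sp5 at -0.69 per day (SE 0.18, limma adjusted p = 0.307), Dkk4 at -0.86 per day (SE 0.26, limma adjusted p = 0.363) and Axin2 at 0.27 per day (SE 0.10, limma adjusted p = 0.412). Apcdd1 averaged 176 ± 91.1 TPM in Shh-positive cells and 54.1 ± 29.3 TPM in Shh-negative cells (limma adjusted p = 0.102), and Rnf43 averaged 66.8 ± 23.1 TPM in Shh-positive cells and 40.8 ± 14.1 TPM in Shh-negative cells (limma adjusted p = 0.113). Both were higher in Shh-positive cells at all 5 stages. Nkd2 was at 4.44 ± 5.01 TPM in Shh-positive cells and 2.20 ± 1.19 TPM in Shh-negative cells (limma adjusted p = 0.762), higher at 2 of 5 stages. At E17.0 Nkd2 was at 12.9 TPM in Shh-positive cells and 1.08 TPM in Shh-negative cells, but the Shh-positive plates were at 0.926, 34.03 and 3.66 TPM, and 4 of 32 cells were at 10 TPM or more.

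The calls in Shh-positive cells rest on few samples. Without E13.0, E14.0, E15.0 or E17.0, or a plate whose loss removes such a stage, Notum alone of the set was called, and 4 to 13 genes in all. With stricter classes, with cells of Xist under 1 TPM, or with no filter on low values, none of the 10 was called. With log2 values averaged over cells, 6 were, since Apcdd1 (limma adjusted p = 0.0462) and Rnf43 (limma adjusted p = 0.0434) passed as well. The estimates of Notum, Nkd1, Axin2 and Znrf3 were positive under all 37 alternatives, at 3.33 to 6.91, 2.003 to 3.67, 1.63 to 2.18 and 1.05 to 1.24. Other markers differed between the groups, and their part in these values was not tested. From E13.0 on, the summed level of 4 suprabasal markers was 7.32 to 10.4 TPM in Shh-positive cells and 143 to 909 TPM in Shh-negative cells. Of the melanocyte markers, Dct averaged 4.95 to 13.1 TPM in Shh-positive cells and 0.0515 to 0.146 TPM in Shh-negative cells over the same 4 stages. The summed level of all melanocyte markers by stage was 2.73 to 17.7 TPM in Shh-positive cells and 1.57 to 14.02 TPM in Shh-negative cells. The ranges of these sums overlap, but they are taken over stages and do not show how the list stood at a single stage. Dct is given as 1 gene of the melanocyte list. Dcn, a fibroblast marker, averaged 354 TPM in Shh-positive cells and 2.75 TPM in Shh-negative cells at E17.0. The summed level of all fibroblast markers by stage was 9.77 to 370 TPM in Shh-positive cells and 15.7 to 133 TPM in Shh-negative cells. Here too the ranges are taken over stages, so their overlap does not show how the whole list stood at E17.0. Dcn is given as 1 gene of that list. The median number of genes detected was 16043 to 20187 in Shh-positive cells and 16636 to 19097 in Shh-negative cells by stage. Of the pathway lists, Wnt5a was higher, at 99.0 ± 83.4 TPM in Shh-positive cells and 12.3 ± 10.3 TPM in Shh-negative cells (limma adjusted p = 0.0491), and Wnt7b lower, at 3.61 ± 6.87 TPM in Shh-positive cells and 28.7 ± 21.1 TPM in Shh-negative cells (limma adjusted p = 0.0321).

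**Figure D3:**
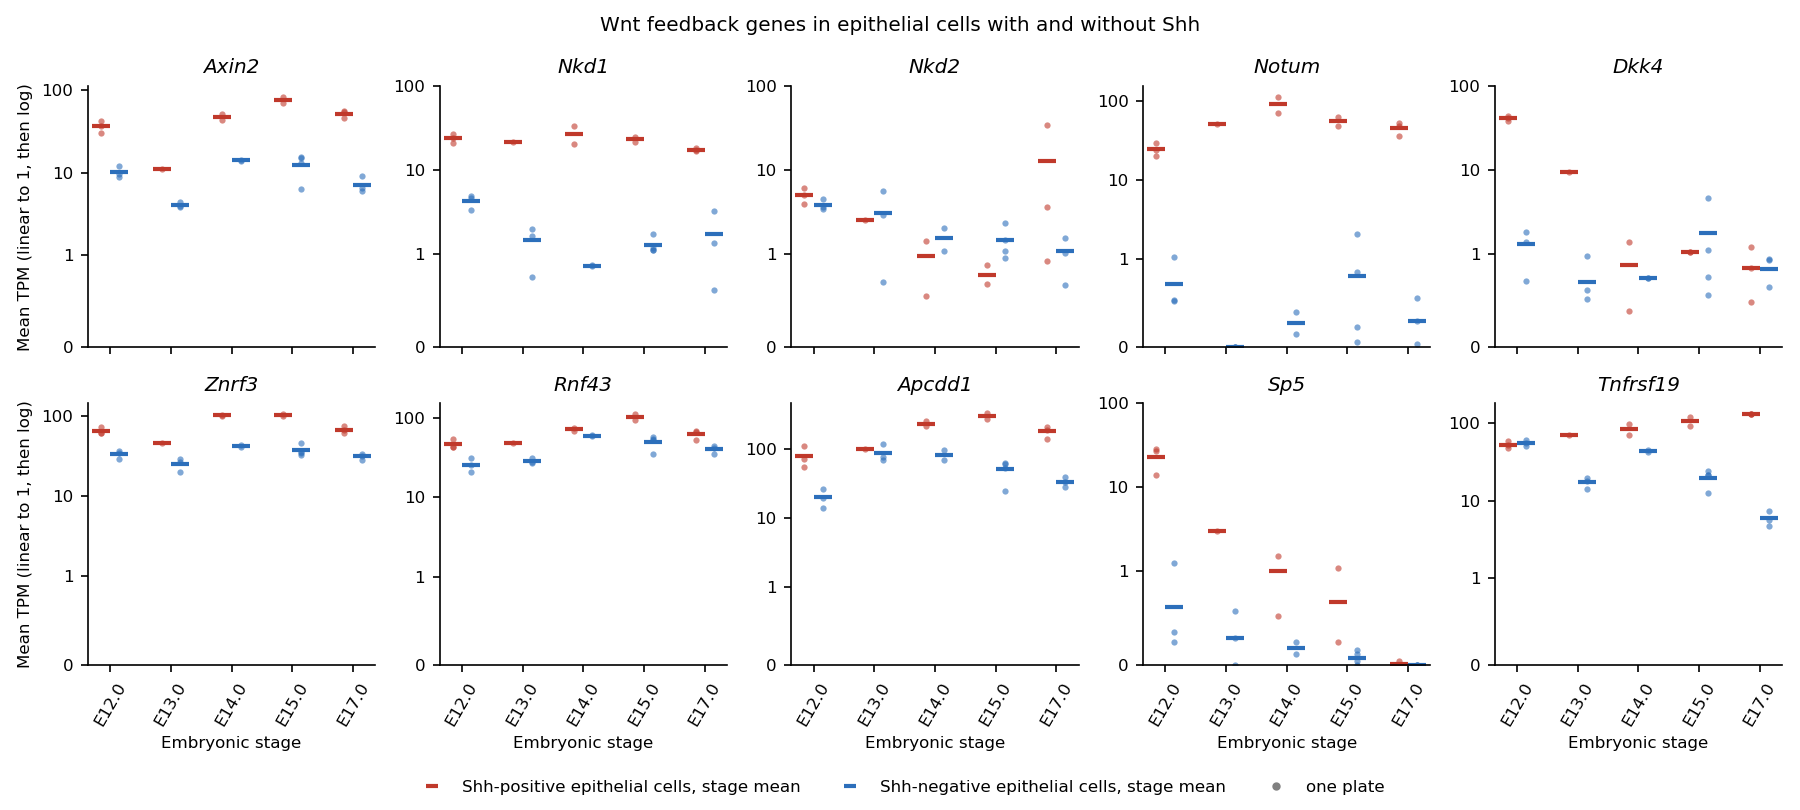
Mean TPM (vertical axis, linear to 1 and logarithmic above) of the 10 genes in Shh-positive (red) and Shh-negative (blue) epithelial cells at the 5 stages compared; bars are stage means and dots are plates with 5 or more such cells. Notum and Nkd1 are apart at every stage, Tnfrsf19 is level at E12.0 and lies at 130 and 5.87 TPM at E17.0, and Sp5 and Dkk4 are apart mainly at E12.0.

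Counted per cell, Shh-positive cells carried more of the 10 genes. The median Shh-positive cell had 7 of the 10 genes at 10 TPM or more and the median Shh-negative cell 4. At least 6 genes reached that level in 80.3% of the 142 Shh-positive cells and 4.84% of the 826 Shh-negative cells. The epithelial cells with 6 or more genes numbered 177, of which 40 were Shh-negative. The E11.5 cells were an exception, since 23 of 54 had 6 or more genes and 17 of these 23 had Shh under 1 TPM. At E13.5 only 2 epithelial cells had 6 or more, both with Shh.

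**Figure D4:**
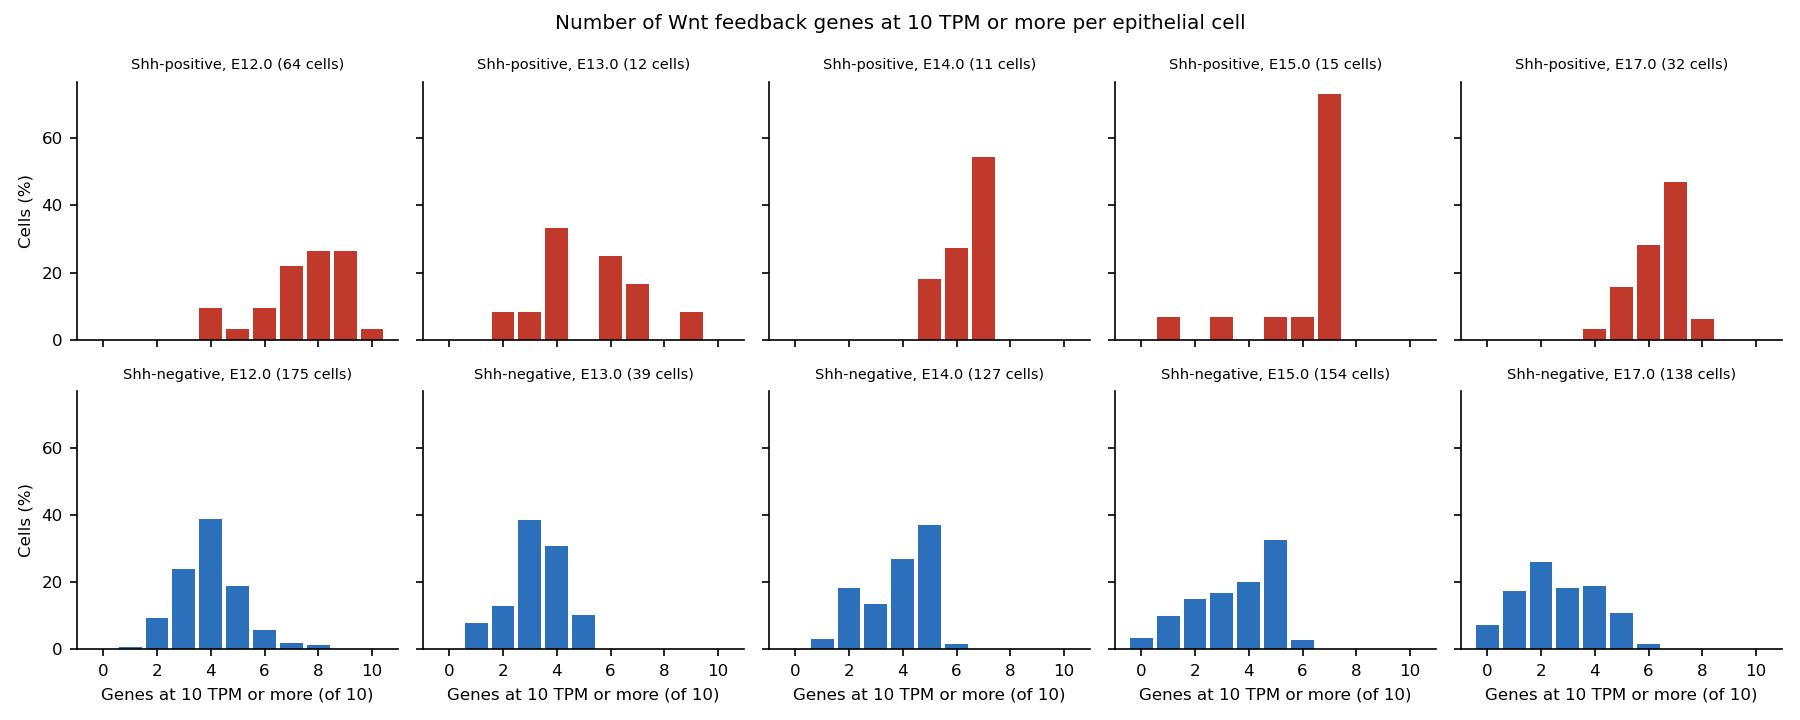
Percent of epithelial cells (vertical axis) by the number of the 10 genes at 10 TPM or more (horizontal axis), for Shh-positive cells (top) and Shh-negative cells (bottom) at 5 stages, with the cell number in each title. Shh-positive cells centre on 7 or 8 genes except at E13.0, where the median is 5, and Shh-negative cells on 2 to 4.

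The same cells carried the genes together, as measured by the correlation between cells within a plate, a partial Spearman correlation given the number of genes detected, averaged over plates and then stages. Cells of a plate share library preparation, so these values are descriptions. Over the 45 pairs the median was 0.29, and 37 pairs were above 0. The median by stage was 0.32, 0.37, 0.20, 0.09, 0.09, 0.30 and 0.33 from E11.5 to E17.0, lowest at E13.5 and E14.0. The pairs differ between stages, with 45 up to E13.0 and 36 from E13.5 on. Notum did not enter at E13.5, nor Sp5 from E14.0 on. Dkk4 entered by the rule of 1 TPM at E13.5, E14.0 and E17.0, where no epithelial cell had it at 10 TPM. The medians of these stages thus include pairs with a gene at background level. The highest mean was 0.51 for Axin2 with Apcdd1, followed by Znrf3 with Apcdd1 at 0.49 and Axin2 with Znrf3 at 0.47. Nkd2 stood apart, with a median of -0.04 over its 9 pairs and values between -0.11 and 0.00, but only 4.06% of epithelial cells had it at 10 TPM or more.

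Which genes moved together changed with stage. At E12.0 Sp5 was among the most connected, at 0.64 with Nkd1, 0.61 with Axin2 and 0.59 with Dkk4, and Tnfrsf19 was near 0 with most, at 0.13 with Axin2 and -0.02 with Nkd1. At E17.0 Tnfrsf19 correlated with Axin2 at 0.74, with Znrf3 at 0.73 and with Apcdd1 at 0.72, and Sp5 was detected in too few cells to enter. With Shh itself, Sp5 was at 0.74 and Tnfrsf19 at -0.03 at E12.0, and Tnfrsf19 at 0.54 at E17.0. Sox9, a factor of follicle stem and sheath cells, correlated with Tnfrsf19 at -0.28 at E12.0 and -0.66 at E17.0, and with Axin2 at -0.07 and -0.59 at these stages.

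**Figure D5:**
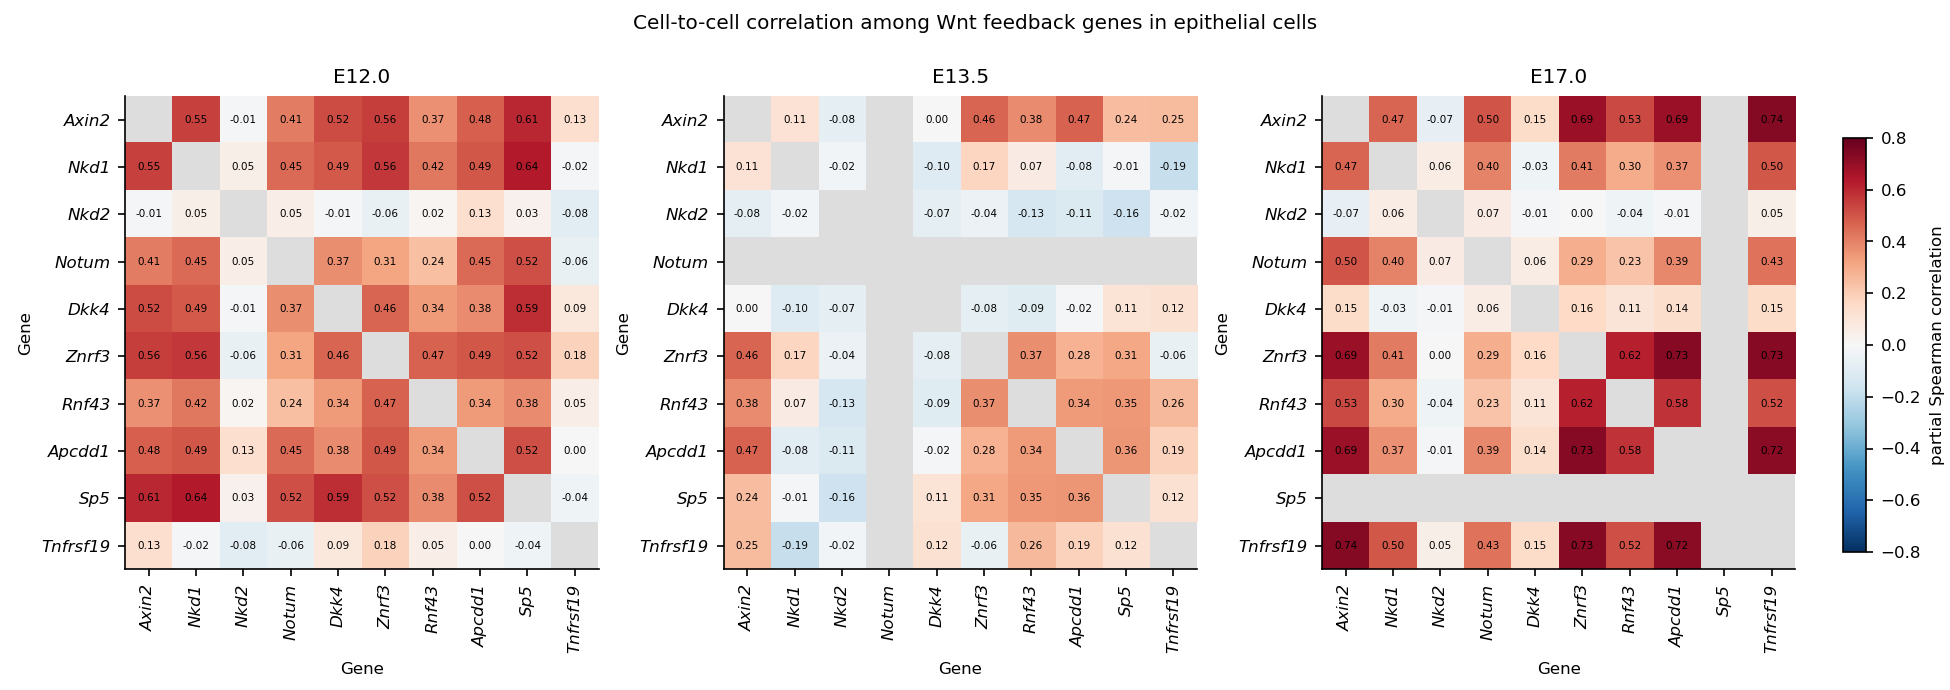
Partial Spearman correlation between cells, within plates, for each pair of the 10 genes in epithelial cells at E12.0, E13.5 and E17.0; grey marks the diagonal and genes detected in too few cells. At E12.0 Sp5 and Nkd1 reach 0.64 while Tnfrsf19 is near 0, at E13.5 the median is 0.09, and at E17.0 Tnfrsf19 and Axin2 reach 0.74.

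Across 29902 genes that could be compared in at least 3 stages, the genes most like Axin2 between epithelial cells were Apcdd1 (0.51), the Frizzled receptor Fzd10 (0.48) and Znrf3 (0.47), all over 7 stages. Members were also nearest to Rnf43, with Axin2 (0.45), Znrf3 (0.44) and Apcdd1 (0.43). For Znrf3 the nearest were Apcdd1, Bcl11a (0.47) and Kremen1 (0.47), and for Apcdd1 they were Pou2f3 (0.55, over 5 stages), Fzd10 (0.52) and Axin2. The median over all genes was 0.01 for each of these 4, so the members stood at the far end of the list. Tnfrsf19 was most like Fzd10 (0.57), Mbd2 (0.50) and the ligand Wnt10b (0.49). Sp5 was most like Ascl4 (0.50), Shh (0.46) and Bmp2 (0.44) over 4 stages, and Nkd1 most like Krt28 (0.54, over 3 stages), Edar (0.48) and Dct (0.47, over 4 stages). Notum was at 0.99 with the overlapping Myadml2os over 3 stages, reads that cannot be told apart, and then at 0.72 with Krt28 and 0.58 with Dct. Dkk4 was nearest to AC158622.3 (0.47), Sp5 (0.42) and Bdkrb1 (0.27), and the genes nearest to Nkd2, CT030157.2, Vmn1r63 and Fam25c, reached 0.29 at most.

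In fibroblast-like cells the ties within the set were in part the same, as for Axin2 with Apcdd1 (0.51 in epithelial cells), and in part different. There were 3 stages with enough cells, and the median pair correlation there was 0.06, 0.15 and 0.23 (E13.0, then E15.0, then E17.0). These medians cover 36, 45 and 28 pairs. Of the pairs measured at all 3 stages, the strongest were Axin2 with Nkd1 (0.53), Nkd1 with Apcdd1 (0.53), Axin2 with Apcdd1 (0.52) and Axin2 with Nkd2 (0.42). Nkd2, near 0 with all others in epithelial cells, was thus among the correlated genes of fibroblast-like cells. It was at 10 TPM or more in 4.06% of epithelial and 83.2% of fibroblast-like cells, and the part of this level in the contrast was not tested.

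Dermal condensate cells are marked by Sox2, and fibroblast-like cells with Sox2 at 10 TPM or more were set beside those with Sox2 under 1 TPM. This split was described without a test. At E13.0 the 75 Sox2-positive cells averaged 32.4 TPM of Notum and the 84 Sox2-negative cells 0.60 TPM, with 30 and 2 cells at 10 TPM or more. Nkd2 averaged 53.02 TPM in Sox2-positive cells and 31.01 TPM in Sox2-negative cells at E13.0. Nkd1 at 31.8 TPM in Sox2-positive cells and 32.5 TPM in Sox2-negative cells, and Apcdd1 at 170 TPM in Sox2-positive cells and 153 TPM in Sox2-negative cells, differed less at that stage. At E15.0, with 35 Sox2-positive and 73 Sox2-negative cells, the gaps were wider. Apcdd1 averaged 124 TPM in Sox2-positive cells and 424 TPM in Sox2-negative cells. Nkd1 averaged 28.8 TPM in Sox2-positive cells and 57.9 TPM in Sox2-negative cells, and Nkd2 averaged 203.95 TPM in Sox2-positive cells and 66.1 TPM in Sox2-negative cells. The means of all 3 genes over plates of equal weight were thus apart at E15.0, with Nkd2 alone higher in Sox2-positive cells. The Sox2-negative means leave out plate 4, with 4 such cells, while the Sox2-positive means include its 9 cells. On plate 4 Apcdd1 was at 170 TPM in Sox2-positive and 108.3 TPM in Sox2-negative cells, the other way. Nkd1 there was at 39.7 TPM in Sox2-positive and 30.8 TPM in Sox2-negative cells, also the other way. Nkd2 kept its direction, at 325 and 41.8 TPM. Plate 1, which held 52 of the 73 Sox2-negative cells, differed as well. Nkd2 there was at 23.01 TPM in Sox2-positive cells and 26.8 TPM in Sox2-negative cells, the other way. Apcdd1 in Sox2-negative cells was at 108.3 TPM on plate 1, against 436 TPM on plate 2 and 729 TPM on plate 3. Notum averaged 19.8 TPM in Sox2-positive cells and 2.16 TPM in Sox2-negative cells at E15.0, and plate 1 went the other way, with 0.0781 TPM in Sox2-positive cells and 2.68 TPM in Sox2-negative cells. At E17.0 the Notum plates were at 35.1, 0.581 and 9.72 TPM in Sox2-positive cells and 10.8, 1.51 and 7.99 TPM in Sox2-negative cells, so the gap there rests on plate 1. Notum was thus at 10 TPM or more in part of the Sox2-positive cells, as in part of the Shh-positive epithelial cells. At E11.5 it was also so in 9 of 47 Shh-negative epithelial cells. The fibroblast-like cells of E11.5, all 14 of them Sox2-negative, averaged 19.6 TPM of Notum, so its level there was not tied to Sox2.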

How the data were processed

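Per the labels and the submitters' processing notes, the tools for RamDA-seq reads were HISAT2 2.0.4, bcl2fastq 1.0 and, from Subread 1.5.0, featureCounts, with build mm10; the annotation release and strand setting are not given in the sources used here. The authors deposited TPM summed per symbol, with column totals of 991213 to 999516; 52 of 1666 labelled cells, marked low quality, have no column (unused columns: 0). Read depth is unknown.

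Mean TPM was taken per plate (5 cells or more) and then per stage (10 cells or more). limma 3.58.1 in R 4.3.3 (lmFit, eBayes with trend, two-sided) was fitted to log2(mean TPM + 1) for all genes averaging 1 TPM or more, after tests on simulated data. Stages act as replicates; they may not be independent embryos. Plates entered correlations with 15 cells, and genes when detected at 1 TPM in 10% of cells. Sox2 and Shh cut-offs were set here. Python 3.11.15 with scipy 1.17.1 was used for shares; a count of 0 allows 3 cells. Gene positions are GENCODE M21 and promoters RefSeq. Genes were named as members, by pathway and marker lists, or as the 3 most alike, passing over predicted genes, pseudogenes and small RNAs. The members and lists were chosen with earlier results of these data known, and the test of the Shh difference against day was added after its values were seen. Alternatives covered pseudocount, filter, scaling, averaging, classes, Xist, plates and stages. No doublet caller was run on the single-well sorts.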

Additional observations from a re-analysis of the deposited data

Results flagged for a closer look

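Cells of neither class were outside every comparison, and some of the 10 genes were at 10 TPM or more there in a larger share than a count of 0 allows. In 62 cells with 3 or more nerve and Schwann markers at 10 TPM or more, a count of 0 allows 4.84%, and Nkd2 reached 87.1%, Axin2 69.4%, Apcdd1 56.5%, Tnfrsf19 45.2%, Nkd1 40.3% and Znrf3 25.8%. Nkd2 averaged 70.5 TPM and Axin2 32.5 TPM in these cells, while Notum, at 0.0286 TPM, was at 10 TPM in none. In 14 cells with 3 or more melanocyte markers, 13 of which are also among the nerve and Schwann cells, Nkd2 reached 78.6%, Axin2 71.4%, Tnfrsf19 50%, Nkd1 35.7% and Znrf3 35.7%, where a count of 0 allows 21.4%. Apcdd1 was at 10 TPM or more in 1 of these 14 cells. In 46 endothelial cells by their markers, Axin2 reached 13.04% and Rnf43 8.70%, above the 6.52% that a count of 0 allows. None of the 10 genes was at 10 TPM in the 10 cells with immune markers. These shares cover counting error only, and no test was run between these cells and the 2 classes.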

How the results depend on the processing

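Each stage is 1 sample and read depth is unknown, so low levels such as those of Sp5 and Nkd2 are the least certain. Of 2124 values of single genes under alternatives, 1996 kept direction and side of the threshold, 53 lost and 19 gained the call, and 56 changed sign, none of them called; the cause was not tested. No paired analysis was possible because replicate numbers only count cells in accession order; stage served as the block instead. The trend called 443 genes, and 30 with no filter, 691 with the mean of log2 values, 90 on lane-format plates, 1412 by rank of stage, and 39 to 517 with 1 stage or plate left out; 1 of the 10 was called with a pseudocount of 0.1 TPM and 1 with the mean of log2 values. The curve called 0, and 1 with protein-coding genes rescaled and 11 by rank. The class comparison called 5152, and 2793 with a filter at 10 TPM and 2267 to 7087 left one out. Its change with day called 0, and 6 with a pseudocount of 5 TPM, 14 with a filter at 10 TPM, 2 with protein-coding genes rescaled, 1 with the mean of log2 values, 2 with stricter classes and 0 to 1 left one out. The Shh comparison called 41, and 67 with a filter at 10 TPM, 1 with no filter, 80 with protein-coding genes rescaled, 22 with median-of-ratios scaling, 214 with the mean of log2 values, 6 with stricter classes, 0 in cells with Xist under 1 TPM, 12 on lane-format plates and 4 to 861 left one out, the highest without E12.0. Of the 10 genes it called 4, and 0 with no filter, stricter classes or Xist under 1 TPM, 2 with technical RNAs removed, median-of-ratios scaling or no stage block, 1 on lane-format plates, 3 with a pseudocount of 5 TPM, 6 with the mean of log2 values, and 1 to 4 left one out. Its change with day called 0, and 31 with a filter at 10 TPM and 34 with protein-coding genes rescaled. Trend slopes that changed sign were Apcdd1 -0.022, Nkd2 -0.096 and Notum -0.093 with the mean of log2 values, Axin2 0.0043 with stricter classes, and Axin2 0.050 and Znrf3 0.025 on lane-format plates. For the class difference with day they were Nkd1 -0.013 with stricter classes and -0.0057 by rank, and Notum -0.018 with Xist under 1 TPM. Tnfrsf19 was 0.038 with a pseudocount of 0.1 TPM, 0.020 with technical RNAs removed, 0.025 with protein-coding genes rescaled, 0.031 with median-of-ratios scaling, 0.027 with pooled cells, 0.12 with Xist under 1 TPM and 0.10 on lane-format plates, and Znrf3 was 0.015 with median-of-ratios scaling, 0.15 with Xist under 1 TPM and 0.20 on lane-format plates. For the Shh difference with day, Nkd1 was -0.0084 with Xist under 1 TPM, and Rnf43 was 0.0039 with technical RNAs removed, 0.055 with median-of-ratios scaling, 0.060 on lane-format plates, 0.039 with the mean of log2 values and 0.035 with stricter classes. With 1 stage or plate left out, trends ran from -0.080 to 0.10 for Axin2, -0.13 to 0.13 for Nkd2, -0.059 to 0.14 for Notum and -0.16 to 0.025 for Znrf3, and curves from -0.17 to 0.16 for Nkd2 and -0.091 to 0.055 for Rnf43. Class differences with day ran from -0.48 to 0.34 for Nkd1, -0.48 to 0.18 for Tnfrsf19 and -0.15 to 0.19 for Znrf3. The Shh difference of Nkd2 ran from -0.18 to 0.62, and Shh differences with day from -0.17 to 0.41 for Nkd1, -0.25 to 0.76 for Nkd2, -0.20 to 0.36 for Notum and -0.045 to 0.021 for Rnf43.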
